A study of Homo sapiens with 10 samples.

Results

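The enzymes of late sterol synthesis were read in 10 RNA-seq libraries of K562 cells, a human erythroleukemia line. They come from a study of inhibition of the HS2 enhancer of the β-globin cluster. The members were chosen by name as 8 enzymes of the route from squalene to cholesterol, *SQLE*, *LSS*, *CYP51A1*, *TM7SF2*, *MSMO1*, *HSD17B7*, *SC5D* and *DHCR7*, and they are 8 of the 20535 genes listed for each library. Their levels against the nontargeting control were known when the list was drawn up, so all values against that control are given as a description. Each of 5 groups had 2 libraries. The control libraries carried the nontargeting sgGal4, and their labels name no effector. In values against sgGal4, HS2 targeting therefore cannot be told apart from a difference in effector or cell population. The other groups carried sgRNAs against HS2 (sgHS2) and 1 of 4 effectors, which were dCas9-KRAB alone (K), dCas9-LSD1 alone (L), dCas9-LSD1 with MCP-KRAB (enCRISPRi-LK, or LK) and dCas9-KRAB with MCP-LSD1 (enCRISPRi-KL, or KL). In the methods, the dCas9 fusions were delivered by lentivirus into sorted cell populations, the sgRNAs were added by another transduction and sort, and doxycycline was given for 72 h in every line.

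Cholesterol is built from acetyl-CoA by way of mevalonate and squalene, and the late steps close the rings, remove methyl groups and reduce or shift double bonds on the sterol. Most of the genes of the route are targets of SREBP-2, a membrane-bound transcription factor that INSIG proteins hold in the endoplasmic reticulum when sterols are plentiful and that is cut and sent to the nucleus when sterols are scarce. In proliferating blood cell lines the route supplies membrane cholesterol, and uptake from serum is the other source.

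All libraries were read in TPM, a length-corrected unit that expresses a gene's transcripts relative to the whole library, and the sequencing depth behind the values is unknown. Of 10 genes that mark K562 cells, 9 were at 1 TPM or more in every library and *GATA1* was listed at 0 in all. Among 11 markers of other cells, *CD3E*, *CD79A*, *MPO* and *ALB* were at 0 throughout and the summed level of the list was between 63.8 and 107 TPM, most of it *EPCAM* and *PTPRC*. The 13 mitochondrial genes took 39.9% to 53.6% of the listed TPM, with 53.6% in sgGal4 replicate 1 and 43.7% in replicate 2, and the members' sums without them are given beside the sums. *KDM1A*, which encodes LSD1, was at 104.7 and 84.17 TPM in the libraries labelled L but between 25.21 and 33.51 TPM in all others. *ZNF10*, the source of a KRAB domain in common use, was between 0.97 and 3.8 TPM with sgGal4 and K and between 31.47 and 364.95 TPM with L, LK and KL. *KDM1A* thus stood within the sgGal4 range with LK and KL, whose labels name LSD1, and *ZNF10* overlapped with sgGal4 in K, whose label names KRAB, but stood above it in L, whose label does not. The levels did not follow the labels in these places, and the reason was not tested. The sgHS2 groups are called the libraries labelled K, L, LK and KL, shortened to K, L, LK and KL.

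The windows before the start sites are shown for 4 members that span the range of the changes described further on, *MSMO1* with the lowest log2 change, *DHCR7* and *CYP51A1* in the middle and *TM7SF2* at control level. Each is the run of 250 bases before the RefSeq start (GRCh38.p14, written on the gene's strand), with CCAAT boxes on either strand in capitals.
*MSMO1*, chr4:165327419-165327668, plus strand: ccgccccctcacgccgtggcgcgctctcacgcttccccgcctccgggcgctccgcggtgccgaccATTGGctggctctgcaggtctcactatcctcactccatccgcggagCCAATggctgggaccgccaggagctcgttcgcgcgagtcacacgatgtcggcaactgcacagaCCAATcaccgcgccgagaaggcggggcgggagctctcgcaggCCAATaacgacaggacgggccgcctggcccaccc
*DHCR7*, chr11:71448394-71448643, minus strand: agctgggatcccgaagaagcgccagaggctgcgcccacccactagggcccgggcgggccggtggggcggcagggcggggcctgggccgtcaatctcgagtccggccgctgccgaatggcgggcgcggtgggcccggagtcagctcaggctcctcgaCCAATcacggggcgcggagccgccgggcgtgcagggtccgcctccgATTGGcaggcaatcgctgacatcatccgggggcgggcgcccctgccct
*CYP51A1*, chr7:92134478-92134727, minus strand: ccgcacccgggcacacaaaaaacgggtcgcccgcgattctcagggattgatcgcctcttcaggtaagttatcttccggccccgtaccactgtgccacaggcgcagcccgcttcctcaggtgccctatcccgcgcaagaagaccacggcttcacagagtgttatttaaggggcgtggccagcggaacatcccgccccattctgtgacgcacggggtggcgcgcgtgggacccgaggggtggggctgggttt
*TM7SF2*, chr11:65111622-65111871, plus strand: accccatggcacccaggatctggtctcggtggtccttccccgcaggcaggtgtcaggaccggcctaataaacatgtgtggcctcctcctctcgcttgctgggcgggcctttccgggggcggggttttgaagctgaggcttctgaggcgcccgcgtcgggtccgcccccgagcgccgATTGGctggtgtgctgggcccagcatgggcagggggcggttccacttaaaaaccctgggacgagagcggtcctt

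Of the 8 members, 7 had a window in the RefSeq table, and *SQLE* had none. CCAAT, the letters bound by NF-Y, occurred on either strand in 6 of the 7 windows, against 32.0% of 35116 windows of the same length. The 35116 windows were not limited to genes expressed in these libraries, so nothing is read from a difference in any of the shares. *MSMO1* held 4 CCAAT matches, *DHCR7* held 2, *LSS*, *TM7SF2*, *HSD17B7* and *SC5D* held 1 each, and *CYP51A1* held none. GGGCGG, a GC box, was found in 7 of 7 windows, against 42.6% of all. CACGTG, an E-box, was found in *SC5D* alone, against 6.34% of all. TCACNCCAC, one spelling of a sterol response element, was in none of the 7 windows and in 0.883% of all, which says only that these letters were not in these windows. None of the 4 spellings contains another. *TM7SF2*, *HSD17B7* and *SC5D*, whose sgHS2 libraries overlapped with sgGal4, held 1 CCAAT each and 4, 1 and 1 GC boxes. A link between these letters and the levels was not tested.

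The sgGal4 libraries gave the order of the levels in the control population. *SQLE*, squalene epoxidase, which adds the first oxygen, had the highest level with 74.2 ± 1.34 TPM (SD, n = 2). *DHCR7*, the last reductase of the route, followed with 46.9 ± 10.5 TPM, and *CYP51A1*, which removes the 14α-methyl group of lanosterol, with 40.6 ± 1.25 TPM. *DHCR7* and *CYP51A1* overlapped in their libraries. *MSMO1*, a C4-methyl sterol oxidase, stood at 33.02 ± 4.14 TPM and *LSS*, which closes the rings to lanosterol, at 27.5 ± 6.65 TPM, again with overlap. The remaining members were low, with 12.7 ± 9.10 TPM for *SC5D*, the C5 desaturase, 7.57 ± 2.06 TPM for *TM7SF2*, a C14 reductase, and 5.39 ± 1.94 TPM for *HSD17B7*, the 3-ketosteroid reductase of C4 demethylation, and each overlapped with the next.

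**Figure D1:**
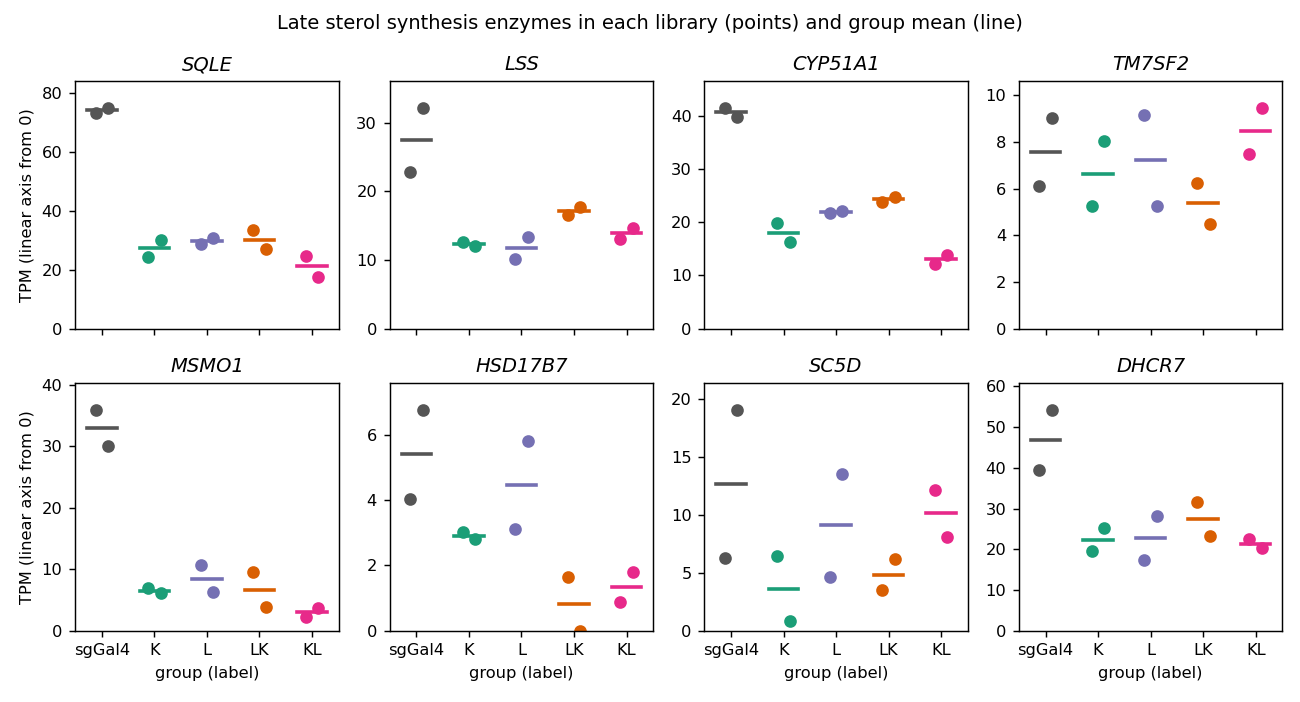
TPM (linear axis from 0) of the 8 enzymes in each of the 10 libraries by group, with points for libraries and a line for the mean of the 2 libraries. In *SQLE*, *LSS*, *CYP51A1*, *MSMO1* and *DHCR7* all 8 sgHS2 libraries lie below both sgGal4 libraries, and in *TM7SF2*, *HSD17B7* and *SC5D* the ranges overlap.

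The steps of 5 members stood lower in every sgHS2 library than in either sgGal4 library: *SQLE*, *LSS*, *CYP51A1*, *MSMO1* and *DHCR7*. Among the 10127 genes with enough signal to be tested (a mean of 1 TPM), 5.29% were placed in this way, and nothing is read from the difference because the members were chosen with this contrast known. Marker genes also moved with this contrast. Of 9 K562 markers tested, *KLF1*, an erythroid transcription factor, and *HBZ*, an embryonic globin, were called higher for the averaged sgHS2 groups. Their log2 changes were 0.92 and 0.51 (limma adjusted p = 0.00861 and 0.0252). *HBE1* and *HBG2*, globin genes of the targeted cluster, were called lower. Among all genes, 1.78% were called higher and 1.48% lower in this contrast. *KLF1* was at 20.25 and 24.05 TPM with sgGal4 and between 35.91 and 52.37 TPM in the sgHS2 libraries. Of 5 markers of other cells tested, 0 were called in limma. An unadjusted p under 0.05 was found for 1730 of all 10127 genes and for 1 of these 5. This was the leukocyte marker *PTPRC*, at 17.18 and 17.49 TPM with sgGal4. It was between 27.04 and 34.77 TPM in K, L and KL, and at 17.59 and 13.05 TPM in LK. The summed level of the other-cell list was 63.8 and 70.9 TPM with sgGal4 and between 69.2 and 107 TPM with sgHS2. The part of these differences in the members' levels was not tested.

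Taken group by group, both libraries lay below both sgGal4 libraries in 6 members for K (18.4% of all genes), 5 for L (20.6%), 7 for LK (21.0%) and 6 for KL (18.6%). The summed TPM of the 8 members was 248 ± 26.2 TPM with sgGal4 (SD, n = 2) and 99.8 ± 2.67 TPM with K, 115 ± 13.9 TPM with L, 117 ± 13.3 TPM with LK and 92.5 ± 3.86 TPM with KL. This left 40.3%, 46.6%, 47.1% and 37.3% of the control sum, and with the mitochondrial genes removed from the total 37.1%, 45.0%, 43.2% and 34.8%. In these bulk libraries, fewer cells that express a gene and less RNA per cell cannot be told apart.

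*SQLE* was at 73.22 and 75.11 TPM in the sgGal4 libraries. It was at 24.3 and 30.24 TPM with K, 28.7 and 30.87 TPM with L, 33.39 and 26.98 TPM with LK and 24.63 and 17.72 TPM with KL. The sgHS2 libraries thus lay close together and far below the controls, with the lowest value in a KL library. Changes were fitted on the log2(TPM + 1) scale with limma, a linear model that shares the estimate of spread between genes, and a gene was called at an adjusted p under 0.05 over all 10127 genes tested. The log2 change from sgGal4 was -1.42 in K, -1.29 in L, -1.28 in LK and -1.78 in KL (standard error 0.238 for each).

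*MSMO1* kept the lowest share of its control level among the members in K, L and KL, and with LK only *HSD17B7* (15.2%) kept less. It was at 35.95 and 30.09 TPM with sgGal4, 6.92 and 6.16 TPM with K, 10.65 and 6.3 TPM with L, 9.49 and 3.84 TPM with LK and 2.26 and 3.73 TPM with KL. All sgHS2 libraries were at most 10.65 TPM, and both KL libraries lay below the other 6. Relative to the mean control TPM, K had 19.8%, L 25.7%, LK 20.2% and KL 9.07%, and the log2 changes were -2.17, -1.88, -2.25 and -3.11 (standard error 0.409 for each). In the order of levels *MSMO1* thereby went from rank 4 of the 8 members with sgGal4 to rank 7 with KL. Within a library the ratio to *SQLE* does not depend on the TPM total, and for each 100 TPM of *SQLE* there were 49.1 and 40.1 TPM of *MSMO1* with sgGal4 and between 9.18 and 37.1 TPM in the sgHS2 libraries.

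*CYP51A1* was at 41.51 and 39.74 TPM with sgGal4, 19.79 and 16.24 TPM with K, 21.76 and 22.02 TPM with L, 23.85 and 24.72 TPM with LK and 12.2 and 13.82 TPM with KL. Replicates were close, and both KL libraries were below the other sgHS2 libraries. The log2 change was -1.14 in K, -0.86 in L, -0.72 in LK and -1.57 in KL (standard error 0.240 for each).

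*LSS* and *DHCR7* lay near a log2 change of -1 in most groups. *LSS* was at 22.78 and 32.18 TPM with sgGal4 and between 10.21 and 17.74 TPM in the sgHS2 libraries, with both LK libraries the highest of these at 16.56 and 17.74 TPM. *DHCR7* was at 39.49 and 54.3 TPM with sgGal4 and between 17.36 and 31.51 TPM in the sgHS2 libraries, where LK lay above KL and all other pairs of groups overlapped. The log2 change of *LSS* ran from -1.15 with L to -0.63 with LK, and that of *DHCR7* from -1.08 with KL to -0.75 with LK.

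*TM7SF2*, *HSD17B7* and *SC5D* were the members whose sgHS2 libraries overlapped with sgGal4. *TM7SF2* was at 6.11 and 9.03 TPM with sgGal4 and between 4.51 and 9.48 TPM with sgHS2, and its log2 change was between -0.42 with LK and 0.16 with KL. *SC5D* had the widest spread between replicates, with 6.25 and 19.12 TPM with sgGal4, 6.49 and 0.81 TPM with K, 4.69 and 13.57 TPM with L, 3.49 and 6.21 TPM with LK and 12.19 and 8.15 TPM with KL. Among its sgHS2 groups, KL lay above K and above LK, and all other pairs overlapped. *HSD17B7* was at 4.02 and 6.76 TPM with sgGal4, 3.01 and 2.81 TPM with K, 3.1 and 5.79 TPM with L, 1.64 and 0 TPM with LK and 0.88 and 1.81 TPM with KL. Its 4 LK and KL libraries lay below every other library.

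**Figure D2:**
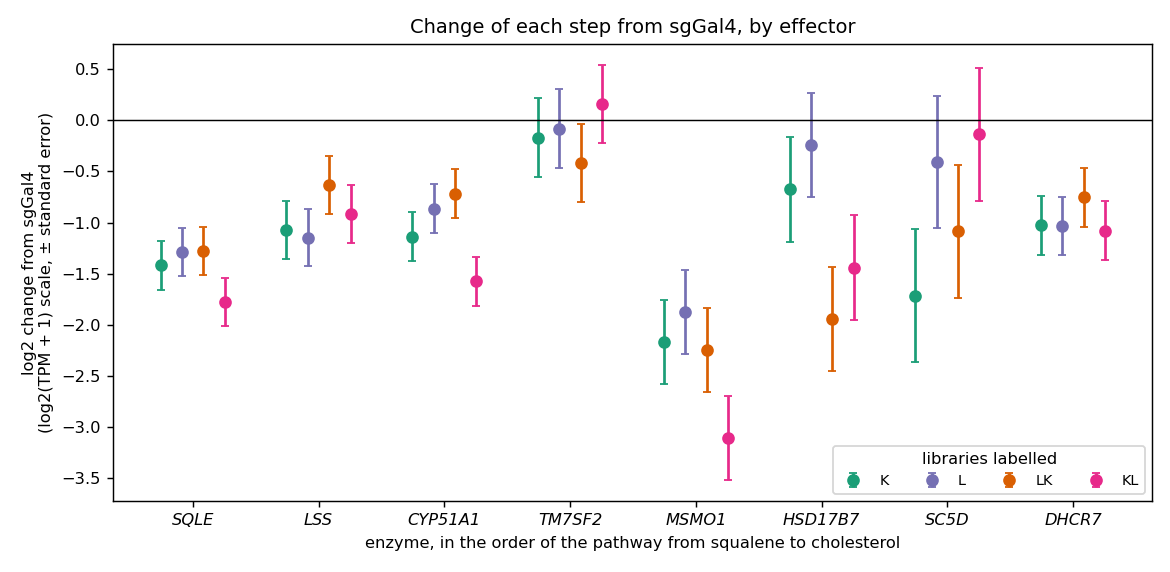
Log2 change of each enzyme from sgGal4 on the log2(TPM + 1) scale (y axis, bars are the standard error of the limma fit) in the order of the pathway (x axis), coloured by the label of the sgHS2 group. *MSMO1* reaches -3.11 with KL, while *TM7SF2* stays between -0.42 and 0.16.

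Read against all genes, 5 of the 8 members (*SQLE*, *LSS*, *CYP51A1*, *MSMO1* and *DHCR7*) were lower at an adjusted p under 0.05 in limma for the 4 sgHS2 groups averaged against sgGal4, where 1.48% of all genes were called lower. The median log2 change of the members was -1.02, and that of all genes tested was 0.03. By group, 3 of 8 members were called with K (*SQLE*, *CYP51A1*, *MSMO1*), where 0.741% of all genes were called lower. With L, 2 of 8 were called (*SQLE*, *MSMO1*) against 0.563%, with LK the same 2 genes against 0.829%, and with KL 3 of 8 (*SQLE*, *CYP51A1*, *MSMO1*) against 0.731%. None of the members was called higher, against 0.879% of all genes with K, 0.306% with L, 1.18% with LK, 0.632% with KL and 1.78% for the average. Without the filter on low values no member was called with L or LK, and without the mean-variance trend none with K, L or LK. The 4 comparisons share the 2 sgGal4 libraries, and since the contrast was known when the members were listed, nothing is read from these counts. The counts rested on single libraries in all groups but KL. With K no member was called without sgGal4 replicate 1, K replicate 1 or K replicate 2. With L none was called without either sgGal4 library or either L library, and 1 without either K or either KL library. With LK none was called without sgGal4 replicate 1 or LK replicate 2, and 1 without sgGal4 replicate 2 or LK replicate 1. With KL the count was 3 without any 1 of the 10 libraries. For the averaged sgHS2 groups it was 2 without sgGal4 replicate 1 and 3 without sgGal4 replicate 2, K replicate 1, LK replicate 2 or KL replicate 2.

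Whether the effectors differed from each other was asked in contrasts between the sgHS2 groups, which the choice of the members did not use. The spread behind their standard errors was estimated from all 10 libraries, with sgGal4 included. With LK and KL against K and L, 0 of 8 members passed an adjusted p of 0.05 in limma, where 0.0889% of all genes did. An unadjusted p under 0.05 was found for 754 of all 10127 genes and for 2 members. *HSD17B7* differed most, with a log2 difference of -1.23 (standard error 0.361, 95% interval -2.01 to -0.46, limma adjusted p = 0.383), and all 4 LK and KL libraries were below all 4 K and L libraries, a placement that 1.78% of all genes had. The difference was -1.02 when the libraries labelled L were left out (limma adjusted p = 0.720), and its values under 7 TPM and a 0 in LK replicate 2 limit it further. Without the libraries labelled L the differences of *SQLE*, *LSS*, *CYP51A1* and *DHCR7* were -0.11, 0.30, -0.01 and 0.11, and 0 members passed. *MSMO1* differed by -0.66, and by -0.51 without the libraries labelled L (standard error 0.290, 95% interval -1.28 to -0.04 and limma adjusted p = 0.661 with all groups). *SQLE* differed by -0.17 (95% interval -0.53 to 0.19) and *CYP51A1* by -0.15 (95% interval -0.51 to 0.22). The size of the members' differences was not tested against that of their changes from sgGal4. *HBE1*, the embryonic globin gene under HS2, differed by -0.97 for LK and KL against K and L (standard error 0.0910, limma adjusted p = 0.000237).

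With LK against KL, 0 of 8 members passed, where 0.385% of all genes did. An unadjusted p under 0.05 was found for 996 of all 10127 genes and for 1 member. This was *CYP51A1*, which was 0.85 higher with LK on the log2 scale (standard error 0.240, 95% interval 0.34 to 1.37, limma adjusted p = 0.208). *MSMO1* was 0.86 higher (95% interval -0.02 to 1.74, limma adjusted p = 0.519) and *SQLE* 0.50 higher (95% interval -0.01 to 1.01, limma adjusted p = 0.516). In 5 of 8 members both LK libraries lay above both KL libraries (*SQLE*, *LSS*, *CYP51A1*, *MSMO1* and *DHCR7*), against 21.1% of all genes. *TM7SF2* and *SC5D* were placed the other way, as were 21.7% of all genes.

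With K against L, 0 of 8 members passed, where 0.0395% of all genes did. An unadjusted p under 0.05 was found for 845 of all 10127 genes and for 0 members. The differences of *SQLE* (-0.13, 95% interval -0.64 to 0.38), *LSS* (0.07, 95% interval -0.53 to 0.68) and *DHCR7* (0.01, 95% interval -0.61 to 0.62) were smaller than their standard errors. Both K libraries lay below both L libraries in *CYP51A1* and *HSD17B7*, 2 of 8 members against 14.5% of all genes. *SC5D* had the widest interval, from -2.70 to 0.09 around a difference of -1.31.

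**Figure D3:**
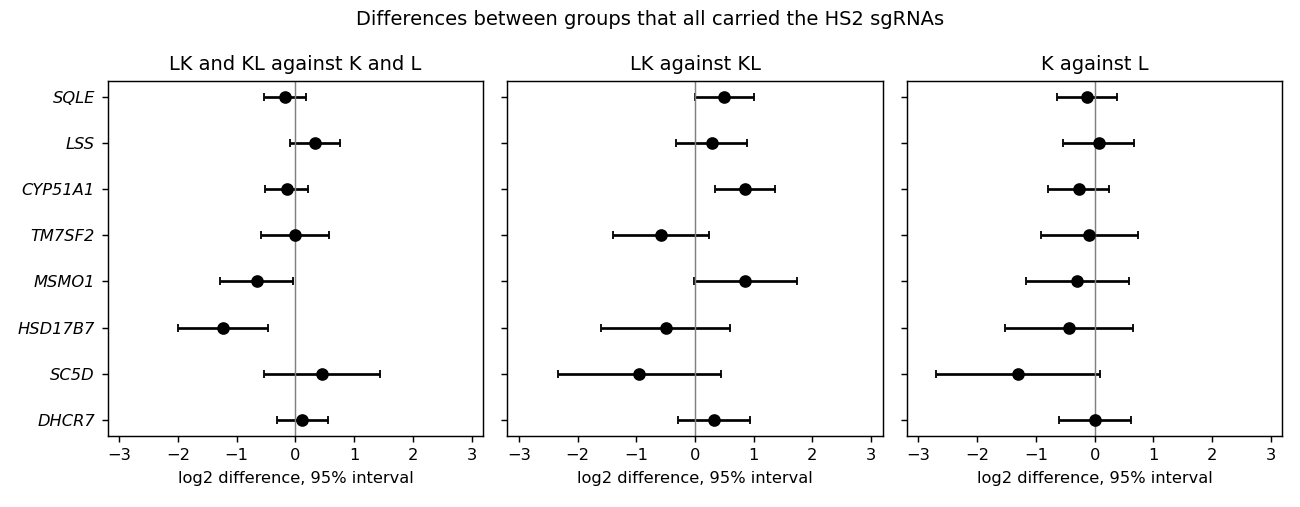
Log2 difference with its 95% interval from limma (x axis) for each enzyme (y axis) in 3 comparisons among groups that all carried the HS2 sgRNAs. Only *MSMO1* and *HSD17B7* for LK and KL against K and L, and *CYP51A1* for LK against KL, have intervals that leave out 0, and none passed the adjusted threshold.

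The members differed in how closely they varied together. Over the 10 libraries, Pearson's r of log2(TPM + 1) was 0.91 between *SQLE* and *MSMO1*, 0.90 between *CYP51A1* and *MSMO1* and 0.90 between *LSS* and *DHCR7*, whereas *TM7SF2* had r between -0.20 and 0.31 with the other members and *SC5D* between -0.01 and 0.45. These points share the 2 sgGal4 libraries, and so the contrast known when the members were listed. Over the 8 sgHS2 libraries alone the same pairs had r = 0.58, 0.67 and 0.55, and r between *SQLE* and *LSS* was -0.05 against 0.79 over all 10. Among 7877 genes averaging 5 TPM or more, the profile most like the mean standardized profile of the 8 members was that of *ATF3*, a stress-induced transcription factor (r = 0.98, n = 10 libraries). It was at 14.71 and 25.71 TPM with sgGal4 and between 3.95 and 7.88 TPM in the sgHS2 libraries. *INSIG1* (r = 0.97) and *SCD* (r = 0.96) had the next ranks. Outside the lipid lists the next were *WBP2* (r = 0.96), *ARHGAP6* (r = 0.95), *SERPINB9* (r = 0.94) and *LRP12* (r = 0.93). The mean profile of the members was at 0.93 and 1.61 in the sgGal4 libraries and between -0.57 and 0.05 in the sgHS2 libraries. These ranks thus rest largely on the contrast known when the members were listed, and nothing is read from them.

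Other genes of the late route were read in the same way. The members were chosen with the contrast to sgGal4 known, so nothing is read from a difference between these genes and the members. *LBR*, which has a C14 reductase domain like *TM7SF2* and a mean level of 38.6 TPM against 7.06 TPM for *TM7SF2*, had a log2 change of -0.54 for the averaged sgHS2 groups (standard error 0.204). *C14orf1*, which encodes the scaffold ERG28, was at -0.38, and *FAXDC2* at 0.03. *NSDHL* and *EBP*, which act between *MSMO1* and *SC5D*, were listed at 0 in every library, as was *GATA1*, and could not be read. Of the 4 measured genes of this list, 0 passed the limma threshold in any of the 8 comparisons. At most 1.78% of all genes were called in a given direction in any of these comparisons. The median of the 4 genes was -0.38 for the averaged sgHS2 groups. In that contrast 2 had an unadjusted p under 0.05, as did 1730 of all 10127 genes.

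Upstream, 6 of 10 mevalonate genes were called lower and 0 higher for the averaged sgHS2 groups, with a median of -1.08. Of all genes, 1.48% were called lower and 1.78% higher in this contrast. *FDFT1*, squalene synthase, which makes the substrate of *SQLE*, was at 194.16 and 233.26 TPM with sgGal4 and between 61.85 and 84.41 TPM in the sgHS2 libraries, a log2 change of -1.53 (standard error 0.157). *HMGCS1*, HMG-CoA synthase, fell by 1.90, *IDI1*, isopentenyl diphosphate isomerase, by 1.57, *ACAT2*, the cytosolic thiolase, by 1.16 and *FDPS*, farnesyl diphosphate synthase, by 0.75. *PMVK* was at -0.13. A difference between this list and the members was not tested.

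Of 12 genes of SREBP control and sterol uptake, 3 were called lower and 0 higher, with a median of -0.50. *INSIG1* fell by 2.49 (standard error 0.349), *STARD4*, a sterol carrier, by 1.39 and *SREBF2*, which encodes SREBP-2, by 0.95. *SCAP*, the escort of SREBP, was at -0.18 and did not pass. In fatty acid synthesis 5 of 9 genes were called lower and 0 higher, with a median of -0.86, and these were *FADS2* (-1.74), *FADS1* (-1.19), *SCD* (-1.18), *ACSS2* (-0.92) and *FASN* (-0.86). Of the 6 genes of sterol export, LXR and esters, 4 were measured and none passed in limma. An unadjusted p under 0.05 was found for 1730 of all 10127 genes and for 0 of these 4. Their log2 changes were between 0.18 and 0.35, and *ABCA1* and *ABCG1*, the LXR-driven exporters, were at or near 0 TPM. The lists were drawn up with results of these data known, and 1.48% of all genes were called lower and 1.78% higher in this contrast.

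**Figure D4:**
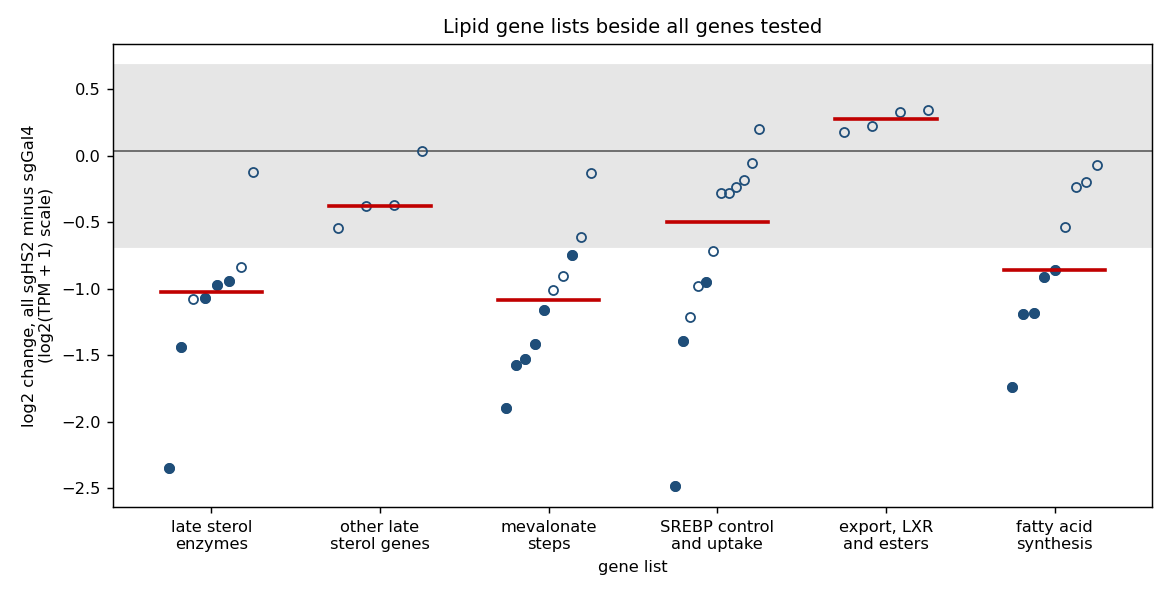
Log2 change for the 4 sgHS2 groups averaged against sgGal4 (y axis) of each gene in 6 lists (x axis), with filled points for genes past an adjusted p of 0.05, red lines for list medians, a grey line for the median of all genes and a grey band from the 5th to the 95th percentile of all genes (-0.69 to 0.68). All filled points lie below the band, and the list medians run from -1.08 for the mevalonate steps to 0.27 for export, LXR and esters.

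In the genome the members are scattered (GENCODE on GRCh37, the build of the files). *TM7SF2* (chromosome 11, 64879317 to 64883856, plus strand, 10 exons), *DHCR7* (chromosome 11, 71139239 to 71163914, minus strand, 9 exons) and *SC5D* (chromosome 11, 121163390 to 121184119, plus strand, 5 exons) share a chromosome with the β-globin cluster, at 59.4, 65.6 and 115.6 Mb from *HBE1*. *SQLE*, *MSMO1*, *LSS*, *HSD17B7* and *CYP51A1* lie on other chromosomes. *MSMO1* spans 166248819 to 166264316 on chromosome 4 (6 exons), *LSS* spans 47608055 to 47648738 on chromosome 21 (22 exons), *HSD17B7* spans 162760492 to 162782613 on chromosome 1 (9 exons), *SQLE* spans 126010739 to 126034525 on chromosome 8 (11 exons) and *CYP51A1* spans 91714301 to 91764117 on chromosome 7 (10 exons). Only reads with a single location in the genome were kept, which bears on the parts that *HSD17B7* and *CYP51A1* share with pseudogenes. Of the 50-base windows of the *HSD17B7* transcript, 47.9% also occur in transcripts of other genes, mainly the pseudogene *HSD17B7P2*, so the TPM of *HSD17B7* rests on part of its transcript. For *CYP51A1* the share was 90.5%, mainly from annotated transcripts that overlap it on the same strand, and the pseudogenes *CYP51A1P2* and *CYP51A1P1* share fewer windows. *AKAP9* overlaps *CYP51A1* on the opposite strand, so reads of this pair may not be told apart unless the libraries kept the strand. *VPS51* overlaps *TM7SF2* on the same strand, but 0.0% of the *TM7SF2* windows occur in transcripts of other genes. The share was at most 1.93% for each of the other members.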

How the data were processed

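RNA-seq was performed on 10 K562 libraries, 2 for each of 5 groups taken from the labels. The authors aligned reads to hg19 with STAR 2.5.2b, used only uniquely placed reads, and deposited TPM per gene symbol from RSEM. The annotation is not given in the sources used here. The methods name the Ovation kit, the labels a directional poly(A) kit. The methods name DESeq2, which needs read counts and was not used here.

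From the TPM, log2(TPM + 1) was fitted for 10127 genes averaging 1 TPM or more in limma (version 3.58.1, R 4.3.3), with all 10 libraries in 1 fit (5 residual degrees of freedom), variances moderated along a trend in the mean, and p-values adjusted by Benjamini-Hochberg over all genes (threshold 0.05). Nothing in the labels says that libraries of a group came from separate cultures, so p-values measure the spread between these libraries. A fold change on this scale understates that of low genes. The step was tested on simulated data. Python 3.11.15 with pandas 2.3.3 and matplotlib 3.10.9 was used for the other steps.

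The members and gene lists were chosen with earlier results of these data known. Named genes were the 8 members, the list genes called and up to 4 others of each list, label checks, and the 5 most alike in profile outside the lists. A few list genes are counted but not reported here by name. Positions came from GENCODE release 44 on GRCh37 and sequences from RefSeq (GRCh38.p14). The alternatives were a pseudocount of 0.1, no filter, median-of-ratios size factors, removal of mitochondrial genes, no trend, a block for replicate number, a fit of only the groups compared, and leaving out each library or the libraries labelled L.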

Additional observations from a re-analysis of the deposited data

How the results depend on the processing

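TPM keeps no depth, so counting error is unknown, and 2 libraries a group give a weak estimate of spread. Of 412 summary values under the alternatives, 308 stayed within 1.5 times or 1 SD of the reported value and 104 moved. Of 1088 values for single members, 1015 stayed on the same side of the threshold, 68 lost the call and 5 gained it. The sign changed in 29 of them, none called before or after, and 12 of these were against sgGal4, in *TM7SF2*, *HSD17B7* and *SC5D* on leaving out 1 library (for example *SC5D* with L from -0.41 to 0.33 without sgGal4 replicate 2). The cause of the moves was not tested. For the mean of the 4 sgHS2 groups, *SQLE* and *MSMO1* were called in 16 of 16 alternatives, *CYP51A1* in 15, *DHCR7* in 9 and *LSS* in 5, and with KL *SQLE*, *CYP51A1* and *MSMO1* were called in 17 of 17. The fit of only the groups compared gives no separate value for the mean of the 4 groups.

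Genes called were 164 with K, 88 with L, 203 with LK, 138 with KL and 330 for the mean of the 4 groups. They were 51, 37, 61, 83 and 185 without the filter on low values and 14, 22, 15, 75 and 99 without the trend. With only the groups compared they were 59, 25, 57 and 66 for the single groups. With the mitochondrial genes removed L gave 140, and the sums of members were 37.1% with K and 34.8% with KL. For LK and KL against K and L the 9 genes became 5 with a pseudocount of 0.1, 4 without the filter, 4 without the trend, 15 with only the groups compared and 3 without the libraries labelled L. For LK against KL the 39 became 20, 17 and 23 without the filter, without the trend and with only the groups compared. For K against L the 4 became 2 without the filter and 1 without the trend. The split into higher and lower genes moved by over 10 points with the mitochondrial genes removed, from 89 and 75 to 71 and 138 with K, from 119 and 84 to 91 and 153 with LK, from 64 and 74 to 65 and 136 with KL and from 180 and 150 to 147 and 268 for the mean of the 4 groups. Without sgGal4 replicate 2 the split was 181 and 50 with K, 99 and 39 with L (31 and 57 with all libraries), 171 and 38 with LK, 117 and 50 with KL and 215 and 59 for the mean of the 4 groups. Without sgGal4 replicate 1 it was 18 and 30 with K and 34 and 56 for the mean. With only the groups compared it was 19 and 40 with K, 6 and 19 with L, 17 and 40 with LK, and 6 and 17 against 19 and 20 for LK against KL. With size factors it was 102 and 113 with LK, and 1 and 2 against 2 and 2 for K against L.

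Members called with K went from 3 to 0 without the trend. With L they went from 2 to 1 with a pseudocount of 0.1 and to 0 without the filter, without the trend or with only the groups compared. With LK they went from 2 to 0 without the filter or the trend, and for the mean of the 4 groups from 5 to 3 under each of these.

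Without 1 library, genes called ranged from 9 to 231 with K, 16 to 138 with L, 20 to 209 with LK, 49 to 167 with KL, 90 to 274 for the mean of the 4 groups, 3 to 15 for LK and KL against K and L, 3 to 39 for LK against KL and 2 to 5 for K against L. Members called ranged from 0 to 3, 0 to 2, 0 to 2, 3 to 3 and 2 to 5 in the 5 comparisons with sgGal4. Their median ranged from -1.28 to -0.91 with K, -1.21 to -0.78 with L, -1.14 to -0.64 with LK, -1.42 to -0.99 with KL and -1.29 to -0.75 for the mean of the 4 groups.

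The replicate numbers did not pair the libraries (correlations of deviations between -0.0213 and 0.0229, 4 of 10 libraries closest to their own number). With the replicate number as a block, genes called were 119 with K, 69 with L, 151 with LK, 127 with KL and 256 for the mean of the 4 groups. Members called went from 2 to 1 with L and were 3, 2, 3 and 5 in the others.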

Other observations

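Chosen after their values were seen, the genes with the most opposite profile to the members over the 10 libraries were *ABHD14A* (r = -0.98), *OTUD6B* (r = -0.93), *L3HYPDH* (r = -0.93), *RPS23* (r = -0.92) and *LPPR3* (r = -0.92), among 7877 genes ranked. These ranks rest largely on the contrast with sgGal4, which was known when the members were listed, and nothing is read from them.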
